A study of Mus musculus with 2 samples.

Results

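A set of 50 genes for liver plasma proteins and liver metabolic enzymes was followed in thymic epithelial cells that do or do not lack the transcription factors Hnf4a and Hnf4g. The genes were chosen by symbol from the gene list of the deposited matrix, by a rule that uses no measured value, although earlier results of these data were known, and all 50 of them were found among 55487 genes. They comprise 11 plasma carriers and transport proteins, 11 clotting, kinin and fibrinolysis proteins, 4 inter-alpha-trypsin inhibitor heavy chains and 1 plasma lectin. The others are 10 enzymes of amino acid, urea and methyl group metabolism, 3 of gluconeogenesis, 7 proteins of bile acid synthesis and transport, and 3 oxidases.

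The hepatocyte secretes most plasma proteins and carries out urea synthesis, gluconeogenesis and bile acid synthesis. HNF4A is a nuclear receptor that drives much of this program in liver, and HNF4G is its paralog, best known in gut. Medullary thymic epithelial cells (mTECs) transcribe genes of other tissues and display them to developing T cells. Some do so under the regulator Aire. Others, called mimetic cells, resemble a whole peripheral cell type such as tuft, microfold, neuroendocrine or gut and liver epithelium.

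The cells were mTEClo, mTECs with low levels of MHC class II, sorted as Pdpn-CD104- from collagenase and dispase digests of thymus from C57BL/6 mice after magnetic depletion of CD45+ cells. The 3 Hnf4ctrl samples, called control here, were Foxn1(cre/+) Hnf4a(fl/+) Hnf4g(+/-). The 4 Hnf4dTEC samples, called mutant here, were Foxn1(cre/+) Hnf4a(fl/fl) Hnf4g(-/-). Both genotypes therefore carried the Foxn1-driven Cre, which acts in thymic epithelium, and the controls lacked 1 functional copy of each gene, whereas the Hnf4g alleles, written as +/- and -/-, are not given as dependent on Cre. The labels do not say whether the samples came from separate mice, so p-values measure the spread between these samples, which may be partly technical. The 7 samples were marked with hash tags on H2-Kb and run as 1 droplet library. Of its 18089 barcodes, 9185 were given a sample and a class by the authors.

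The library counted 9185 cells that the authors assigned to 15 classes, 3295 from controls and 5890 from mutants. Samples held 801 to 1652 cells and 10127838 to 25821970 unique molecular identifiers (UMIs, each a captured transcript end), with a median of 11528 to 15053 UMIs per cell. Hnf4g transcripts were 118 ± 3.94 TMM-scaled CPM (UMIs in counts-per-million of the sample total; SD, n = 3) in controls and 83.4 ± 4.99 (n = 4) in mutants, log2 change -0.50 (adjusted p = 0.0384). The 3′ ends counted may lie outside the deleted parts, so this level does not check the deletion. Control samples held 8, 19 and 55 Entero-hepato cells (gut- and liver-like) and mutant samples held 2, 1, 0 and 0. Aire-expressing cells made up 3.50 to 13.1% of control and 5.87 to 12.4% of mutant cells, least in control 1. Markers listed for the classes had their highest level in their own class for 11 of 14 Entero-hepato, 8 of 8 Tuft, 7 of 8 Neuroendocrine, 7 of 8 Keratinocyte and 4 of 8 Secretory markers. Markers of thymocytes summed to 19.9 to 39.1 CPM in controls and 29.6 to 38.4 in mutants. Those of fibroblasts summed to 19.9 to 25.0 CPM in controls against 12.2 to 19.2 in mutants, and those of endothelium overlapped. The sum of 8 myeloid and B cell markers was 105 to 195 CPM in controls against 39.4 to 61.6 in mutants, but without Lyz1, whose largest share of UMIs (23.8%) lay in Microfold cells, it was 10.1 to 13.7 against 10.7 to 12.4. No marker of these lists was at 0, and their part in the results below was not tested.

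The 250 bases before the RefSeq transcription start were read for 40 of the 50 genes. Those of 4 genes are shown because they belong to genes whose levels or classes the results turn on, and because they hold letters of motifs bound by liver factors. Capitals mark matches, on either strand, to CAAAGTC (core of HNF4 sites), GTTAATNAT (HNF1) and TTGCNNAA (C/EBP), all 5′ to 3′ on the strand of the gene, build GRCm38.p6. Alb (albumin) lies at chr5:90460620-90460869, plus strand, Gc (vitamin D-binding protein) at chr5:89457899-89458148, minus strand, Ahsg (fetuin-A) at chr16:22891765-22892014, plus strand, and Hpx (hemopexin) at chr7:105600117-105600366, minus strand.
Alb: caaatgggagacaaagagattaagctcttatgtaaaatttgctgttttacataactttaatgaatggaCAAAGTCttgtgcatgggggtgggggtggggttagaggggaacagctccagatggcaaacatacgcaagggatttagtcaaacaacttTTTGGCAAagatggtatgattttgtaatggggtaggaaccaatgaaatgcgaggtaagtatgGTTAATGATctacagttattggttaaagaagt
Gc: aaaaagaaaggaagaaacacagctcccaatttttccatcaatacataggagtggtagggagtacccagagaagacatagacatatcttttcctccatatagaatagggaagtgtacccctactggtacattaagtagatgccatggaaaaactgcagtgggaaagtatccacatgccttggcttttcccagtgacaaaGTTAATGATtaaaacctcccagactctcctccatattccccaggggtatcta
Ahsg: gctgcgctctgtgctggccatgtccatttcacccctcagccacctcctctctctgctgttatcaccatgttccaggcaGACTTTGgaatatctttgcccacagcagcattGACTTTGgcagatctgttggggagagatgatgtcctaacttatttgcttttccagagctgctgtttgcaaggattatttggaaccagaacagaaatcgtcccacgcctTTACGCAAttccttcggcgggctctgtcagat
Hpx: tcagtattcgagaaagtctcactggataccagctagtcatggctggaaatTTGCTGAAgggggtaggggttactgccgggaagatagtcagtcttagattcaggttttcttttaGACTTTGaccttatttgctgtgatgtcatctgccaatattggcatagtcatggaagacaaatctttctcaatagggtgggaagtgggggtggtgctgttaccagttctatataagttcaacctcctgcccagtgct

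CAAAGTC was present in this window of 7 of the 40 genes (7 of their 42 promoters, 16.7%). Among 32851 RefSeq promoters of the same length the share was 3.84%. The 7 genes were Alb, Ahsg, Hpx, Vtn, Hao1, Slc10a1 and Cyp8b1. Only Cyp8b1 held the longer CAAAGTCCA, which contains CAAAGTC and occurred in 0.384% of all promoters. GTTAATNAT was present in 4 genes (Gc, Alb, Fga and G6pc), or 9.52% of the 42 promoters, against 0.737% of all promoters. TTGCNNAA was present in 12 genes (28.6% of the 42 promoters) against 9.56%. The forkhead motif TGTTTAC was present in 2 genes (Apoh and Rbp4), or 4.76% of the 42 promoters, against 3.17%. These are matches of letters only.

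The 50 genes were divided among several classes. Of the 46 genes with at least 20 UMIs in all samples together, 29 had more than 50% of their UMIs in 1 class. That class was the Aire-expressing cells for 19, Neuroendocrine cells for 3, Tuft cells for 3, and Ciliated, Entero-hepato, Keratinocyte and Klk-rich cells for 1 each. Such shares also follow class size, and Tuft cells were the largest class, with 4118 of the 9185 cells. In control samples alone another class held the most UMIs for Vtn, Fga, Itih4, Hpd and Bhmt. The 4 genes with fewer UMIs were nearly silent. Cyp7a1, the rate-limiting enzyme of bile acid synthesis, had 3 UMIs in all, Otc (ornithine transcarbamylase of the urea cycle) had 8, F9 had 9 and Cyp8b1 (sterol 12-alpha-hydroxylase) had 11. Otc had 0 UMIs in controls, which allows up to 0.0622 CPM by counting error.

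**Figure D1:**
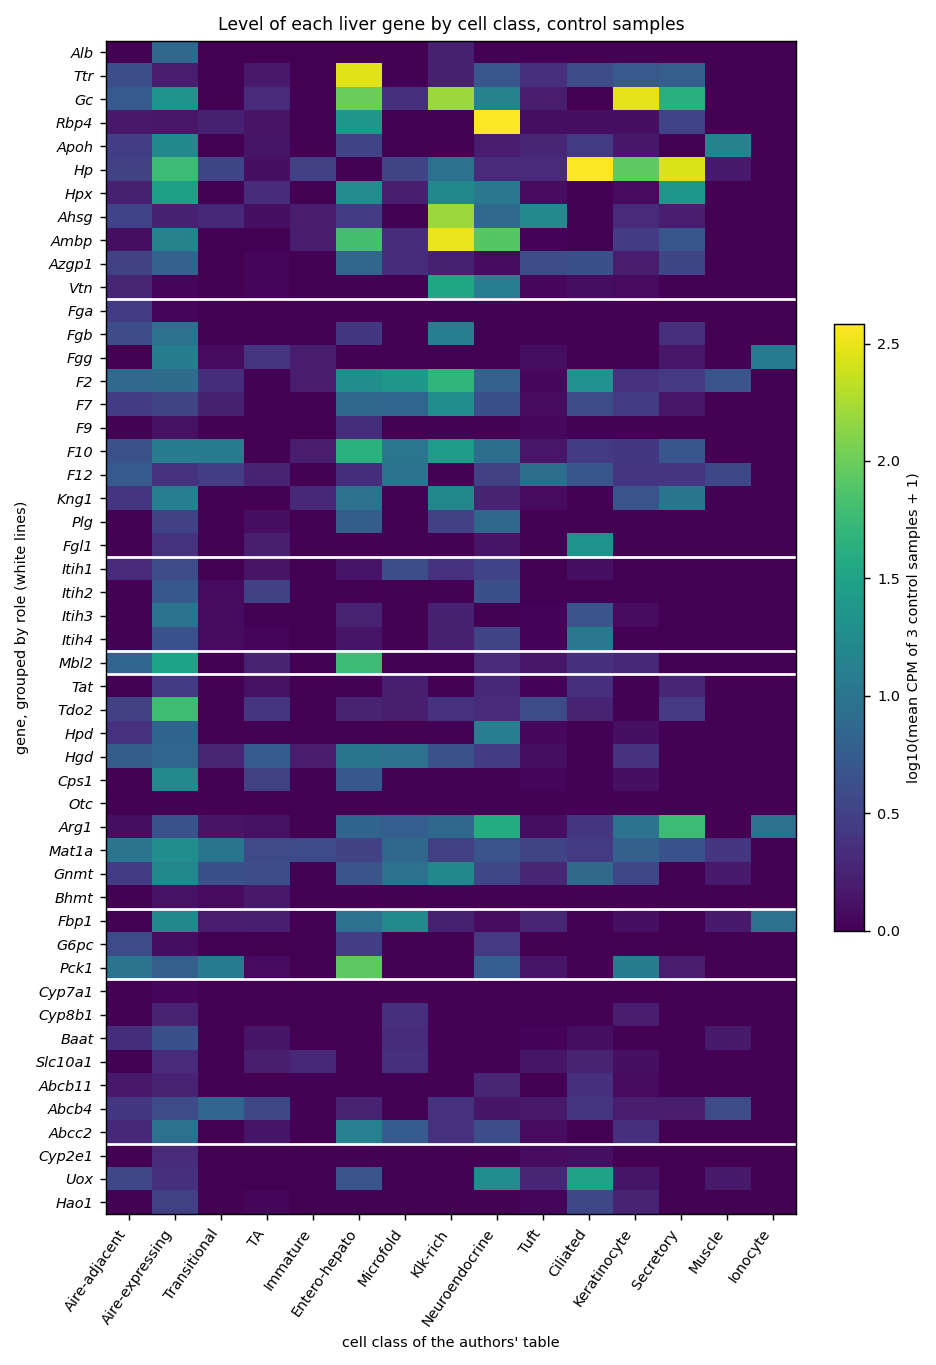
Mean level of each of the 50 genes (rows) in each of the 15 classes (columns) of control samples, as log10 of CPM plus 1, where CPM are taken of the class total in a sample and the mean is over control samples with cells of that class. Bright cells stand for single genes in single classes, such as Rbp4 in Neuroendocrine and Gc in Keratinocyte cells, and the Immature column is dark throughout.

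Entero-hepato cells, named for gut and liver, held 13.5% of control UMIs of the 50 genes, Aire-expressing cells 20.4%, Neuroendocrine cells 17.8% and Keratinocyte cells 15.6%. These shares depend on class size, and the levels stood in another order. As a mean over the 3 control samples, the summed level of the 50 genes was highest in Klk-rich cells, at 841 ± 432 CPM of the class total (SD, n = 3). It was 782 ± 711 in Entero-hepato, 630.4 ± 242 in Neuroendocrine and 493 ± 153 in Ciliated cells. Keratinocyte, Secretory and Aire-expressing cells followed at 438 ± 139.6, 435 ± 213 and 420.1 ± 36.7. Klk-rich samples stood at 839, 1274 and 411 CPM in controls, from 8, 6 and 33 cells. In mutants they stood at 70.5, 78.5, 224 and 238 CPM, and the class was too small to test. In control 2, 1 of the 6 Klk-rich cells held 47 Ambp and 30 Ahsg UMIs. Klk-rich control cells held 364 UMIs of the 50 genes among 644460 of any gene, and Entero-hepato control cells 1457 among 1146178. Pooled that way, Entero-hepato stood above Klk-rich cells. The Entero-hepato level varied most between samples, and 648 of its 1457 control UMIs lay in 1 cell. In mutants the shares of UMIs were 0.384% for Entero-hepato, 24.6% for Aire-expressing, 14.6% for Neuroendocrine and 13.4% for Keratinocyte cells. Levels below are in CPM of the sample total, or of the total of a class within the sample where the class is named. Because 1 UMI stands for 1 captured 3′ end, CPM need no division by gene length.

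The class with the highest CPM was not the class with most UMIs for many genes, and small classes hold few UMIs. Of 42 genes with at least 20 control UMIs, the class highest by mean control CPM was Aire-expressing for 12, Klk-rich for 8, Entero-hepato for 7 and Ciliated for 5. It was the same class in all 3 control samples for 7 genes and in the mutant mean for 21.

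Plasma carriers held more UMIs than any other role. Among them haptoglobin (Hp), which binds free hemoglobin, had 5648 UMIs, followed by retinol-binding protein (Rbp4) with 2522, Gc with 2315 and Ahsg with 1149. Summed over the 11 carriers, the level was 138.6 ± 2.15 CPM (SD, n = 3) in controls and 90.5 ± 4.24 (n = 4) in mutants, and the samples did not overlap. The sum joins genes with opposite differences, as the single genes show.

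Gc (chr5:89417522-89457898, mm10 with GENCODE M21 coordinates) carries vitamin D metabolites and actin in plasma. Over all cells it stood at 60.0, 26.7 and 21.7 CPM in controls and at 12.8, 10.7, 8.87 and 5.97 CPM in mutants. Every control was above every mutant. The log2 change was -1.89 (SE 0.39), with an adjusted p of 0.200 in edgeR's quasi-likelihood test with Benjamini-Hochberg adjustment over all genes. DESeq2 gave -1.91 with an adjusted p of 0.000174, so the call depends on the tool. In sums over all cells, fewer cells of a type and less RNA per cell cannot be told apart.

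Keratinocyte cells held 70.5% of Gc UMIs. Within that class Gc was at 461, 198 and 235 CPM in controls and at 113, 92.9, 106 and 21.8 CPM in mutants, again with no overlap. One cell of control 1 held 276 Gc UMIs, and without it control 1 was at 230 CPM. The share of Keratinocyte cells with Gc, after thinning each cell to 5000 UMIs, was 18.2, 22.1 and 21.7% in controls and 10.1, 12.4, 10.2 and 2.22% in mutants (unthinned, 21.2 to 25.8% and 6.19 to 13.3%). So the control samples were higher both in how many cells held the transcript and in its class level. Immature cells, the background class here, had Gc in 0 of 354 cells, which allows up to 0.847% of cells with a captured UMI, with a median of 8083 UMIs against 11813 in Keratinocyte cells. Within Keratinocyte cells the log2 change was -1.85 (SE 0.44, edgeR adjusted p = 0.256).

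Ambp (chr4:63143275-63154799), the precursor of alpha-1-microglobulin and bikunin, was chosen for naming after its values were seen, as were Hpx, F10, F7 and Kng1. Over all cells it stood at 7.70, 7.81 and 18.7 CPM in controls and 0.936, 0.362, 1.21 and 3.56 CPM in mutants. The genotypes did not overlap, and control 3 stood highest. The log2 change was -2.91 (SE 0.64, edgeR adjusted p = 0.242; DESeq2 adjusted p = 0.00124).

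Neuroendocrine cells held 42.8% of Ambp UMIs, at 96.5, 37.8 and 101 CPM in controls and 2.51, 2.28, 7.07 and 30.0 CPM in mutants. Mutant 4 was closest to the controls but stayed below all of them. At 5000 UMIs per cell, 17.02, 11.1 and 13.01% of control and 1.63, 1.09, 3.13 and 3.91% of mutant Neuroendocrine cells held Ambp (unthinned, 19.3 to 23.6% and 2.13 to 6.12%). In Immature cells 1 of 354 held it (0.282%), with a median of 8083 UMIs against 12224 in Neuroendocrine cells. The log2 change within Neuroendocrine cells was -2.81 (SE 0.60, edgeR adjusted p = 0.101). Without mutant 4 it was -4.30 with an adjusted p of 0.00427, so that sample decides the call. Klk-rich cells, a class too small to test, held 133 Ambp UMIs in 7 of 47 control cells and 0 UMIs in 78 mutant cells, which allows up to 3.85% of cells with a captured UMI and sets no limit on cells that express the gene. Of the 133 UMIs, 64 lay in 1 cell of control 3 and 47 in 1 cell of control 2.

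**Figure D2:**
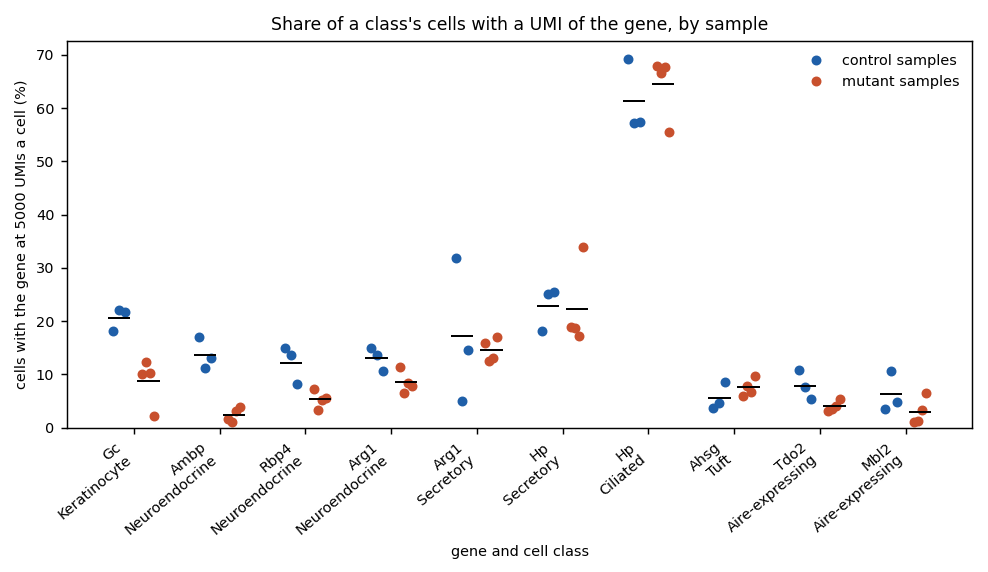
Share of the cells of a class that held at least 1 UMI of a gene (vertical axis, percent, each cell thinned to 5000 UMIs) for 10 pairs of gene and class, with 1 point per sample and a line at the genotype mean. Gc in Keratinocyte cells and Ambp and Rbp4 in Neuroendocrine cells have all controls above all mutants, whereas Hp in Ciliated and Ahsg in Tuft cells overlap.

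Ttr, transthyretin, which carries thyroxine and retinol-binding protein, stood at 1.48, 3.34 and 25.0 CPM in controls and at 1.15, 0.311, 0.775 and 0.277 CPM in mutants. Its log2 change was -3.99 (SE 0.98, edgeR adjusted p = 0.294; DESeq2 adjusted p = 0.0295). One Entero-hepato cell of control 3 held 568 of the 756 Ttr UMIs. Without that cell the log2 change was -2.03 (adjusted p = 0.332), without control 3 it was -1.92, and without all Entero-hepato cells -1.41 (SE 0.63, adjusted p = 0.887). That cell had 35477 UMIs, of which Ambp held 50, Kng1 (kininogen) 13 and Hpx 5, and it carried 9 of the 50 genes.

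Rbp4 (chr19:38116629-38125281) belonged to Neuroendocrine cells, with 89.3% of its UMIs there in few cells of very high level. Over all cells it stood at 23.3, 56.8 and 8.21 CPM in controls and 14.3, 3.83, 25.6 and 20.2 CPM in mutants, and the ranges overlapped. Within Neuroendocrine cells it was at 389, 670 and 84.7 CPM in controls and 203, 50.9, 361 and 203 CPM in mutants, log2 change -0.87 (SE 0.61, edgeR adjusted p = 0.785). Without control 2 the log2 change was -0.10, and with any other 1 sample left out it lay between -1.37 and -0.55. The share of these cells with Rbp4 at 5000 UMIs was 14.9, 13.6 and 8.13% in controls and 7.32, 3.26, 5.21 and 5.47% in mutants, with no overlap (unthinned, 9.45 to 18.4% and 6.77 to 8.51%), against 1 of 305 Immature cells. A single cell of mutant 3 held 344 UMIs, and 7 cells held at least 50% of the total.

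Hp (chr8:109575128-109579172) was spread over several classes, with 34.7% of its UMIs in Ciliated cells and more in Secretory and Keratinocyte cells. Over all cells it stood at 31.9, 24.4 and 42.75 CPM in controls and 42.76, 58.0, 37.9 and 46.8 CPM in mutants, overlapping, with a log2 change of 0.49 (SE 0.21, edgeR adjusted p = 0.740). Within Ciliated cells it stood at 535, 254 and 332 CPM in controls and 375, 662, 541 and 297 CPM in mutants. It was found in 57 of 75 control and 96 of 122 mutant Ciliated cells, and in 5 of 354 Immature cells (median 23527 and 8083 UMIs). These samples overlapped (log2 change 0.34, edgeR adjusted p = 1.000).

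Ahsg (chr16:22891277-22899449), which binds calcium phosphate in plasma, had 88.1% of its UMIs in Tuft cells. By mean control CPM its highest class was Klk-rich, and Tuft once control 2 was left out. Unlike Ttr or Rbp4, Ahsg was spread thinly over 618 cells. It had 30 UMIs in 1 Klk-rich cell of control 2 and at most 9 in any other cell. Over all cells it stood at 7.80, 7.65 and 6.66 CPM in controls and 8.21, 11.3, 9.69 and 8.88 CPM in mutants, with every mutant above every control. This was a log2 change of 0.39 (SE 0.14, edgeR adjusted p = 0.641). Within Tuft cells the samples overlapped, at 12.1, 11.1 and 23.2 CPM in controls and 16.4 to 24.0 CPM in mutants. Without Tuft cells the change over all cells was -0.92. Tuft cells made up 31.1 to 55.6% of control and 36.7 to 52.7% of mutant cells, least in control 3, and the part of that share in the Ahsg level was not tested. GENCODE places an antisense gene, Gm30505, over the start of Ahsg, and no source used here states how strand was treated in the counting. Azgp1, a zinc-binding plasma glycoprotein, had 62.5% of its 280 UMIs in Tuft cells too, the largest class. By mean CPM its highest class was Entero-hepato in controls and Ciliated in mutants. Over all cells Azgp1 stood at 1.96 ± 0.330 CPM (SD, n = 3) in controls and 2.17 ± 0.414 (n = 4) in mutants.

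Albumin, the most abundant plasma protein, was scarce in these cells. Alb (chr5:90460897-90476602) had 120 UMIs in 27 cells, 89.2% of them in Aire-expressing cells, and 1 cell held 28. Over all cells it stood at 0, 0.0814 and 2.79 CPM in controls and 0.298, 0, 0.727 and 1.16 CPM in mutants. The log2 change of -0.98 (SE 1.26, edgeR adjusted p = 0.988) was smaller than its error. Apoh, which binds phospholipids, had 61.8% of its UMIs in Aire-expressing cells, and Vtn (vitronectin) had 60.4% in Klk-rich cells. Hpx (chr7:105591613-105600137), which binds heme, stood in Aire-expressing cells at 52.5, 10.5 and 21.3 CPM in controls and 0.555, 0.607, 0.880 and 9.33 CPM in mutants. These samples did not overlap, but 19 of 785 cells held the gene, and the log2 change was -2.95 (SE 0.92, edgeR adjusted p = 0.834).

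**Figure D3:**
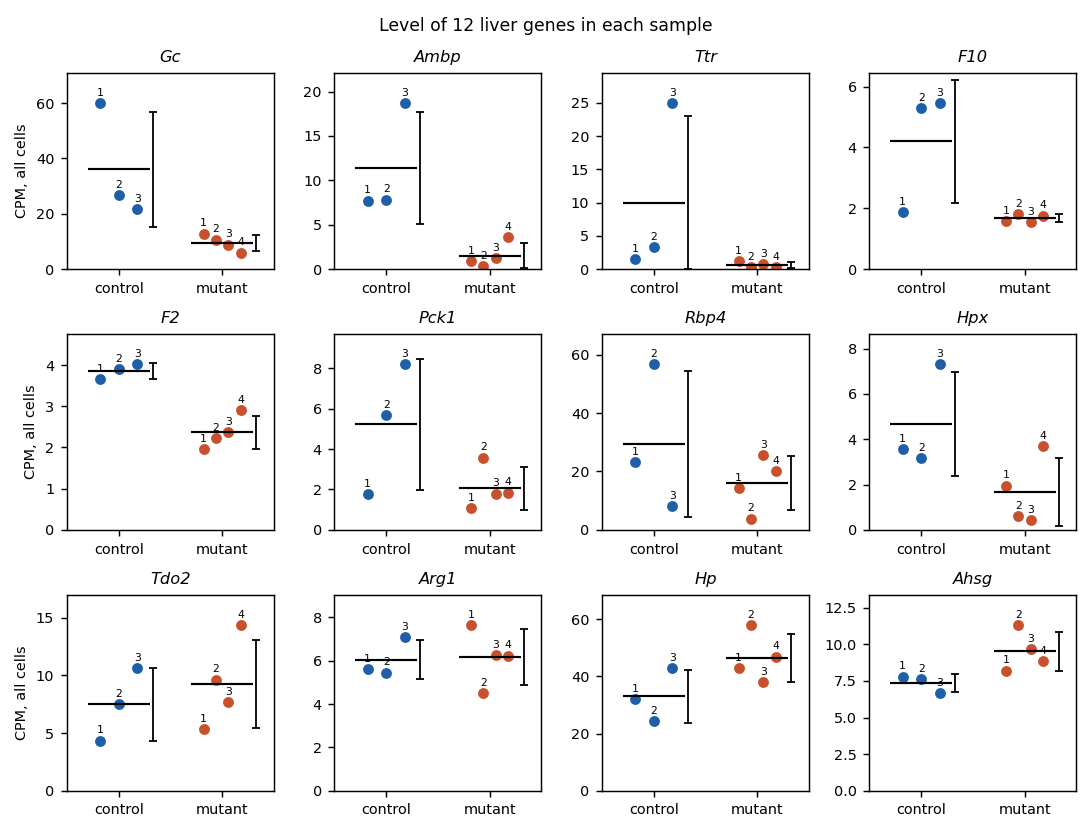
Level of 12 genes in each sample over all cells (vertical axis, CPM, starting at 0), with points numbered by sample, a line at the genotype mean and a bar of 1 SD on either side. Gc, Ambp, Ttr, F10 and F2 have every control above every mutant, Ahsg has every mutant above every control, and the other 6 genes overlap.

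Clotting genes gave a sum of 21.7 ± 7.04 CPM (SD, n = 3) in controls and 16.7 ± 4.52 (n = 4) in mutants, which overlapped. The 3 with most UMIs lay in different classes. F12, the contact factor that starts the intrinsic pathway, had 72.9% of its 431 UMIs in Tuft cells. Fgg, the fibrinogen gamma chain, had 73.2% of 410 UMIs in Aire-expressing cells, and F2, prothrombin, had 24.6% of 390 UMIs in Ciliated cells and the rest in many classes.

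F2 (chr2:91625320-91636414) varied little within each genotype. It stood at 3.65, 3.91 and 4.03 CPM in controls and 1.96, 2.23, 2.37 and 2.91 CPM in mutants, and the genotypes did not overlap. The fitted log2 change was -0.70 (SE 0.18, edgeR adjusted p = 0.344). Within Ciliated cells it was 0.01 (SE 0.36, adjusted p = 1.000).

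F10, the factor at which both clotting pathways meet, and F7, which starts the extrinsic pathway, are neighbours 1498 bases apart on chromosome 8. F10 (chr8:13037308-13056676) stood at 1.88, 5.29 and 5.46 CPM in controls and 1.57, 1.81, 1.55 and 1.76 CPM in mutants. Control 1 lay just above the mutants and the other controls far above. The log2 change was -1.34 (SE 0.34, edgeR adjusted p = 0.328), and without control 1 it was -1.67 with an adjusted p of 0.0399. Entero-hepato cells held 32.9% of control F10 UMIs and Aire-expressing cells 21.8%. Over all samples Aire-expressing cells held the most, 30.5%. Within Aire-expressing cells the log2 change was -0.55 (SE 0.42) and within Neuroendocrine cells -0.11 (SE 0.43), and the samples overlapped in both. F7 stood at 1.34 ± 0.188 CPM (SD, n = 3) in controls and 0.944 ± 0.161 (n = 4) in mutants, and the samples overlapped.

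F12 in Tuft cells stood at 7.92, 9.74 and 5.22 CPM in controls and 4.76, 5.71, 6.29 and 3.78 CPM in mutants, overlapping, with a log2 change of -0.54 (SE 0.24, edgeR adjusted p = 0.562). Fgl1, a fibrinogen-like protein of hepatocytes, had 77.5% of its UMIs in Ciliated cells, at 11.2, 11.4 and 38.1 CPM in controls and 29.5, 16.2, 74.6 and 41.5 CPM in mutants, which overlapped (log2 change 0.75, SE 0.51, edgeR adjusted p = 1.000). Plg (plasminogen) had 58.0% of its 81 UMIs in Neuroendocrine cells.

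The 3 fibrinogen chains, Fga, Fgb and Fgg, sit in 1 cluster on chromosome 3, and few cells held them. Fgb had 177 UMIs in 16 cells, with 91 in 1 Aire-expressing cell of mutant 3. That cell, of 20330 UMIs, carried 11 of the 50 genes, more than any other cell, among them Fgg with 37 UMIs, Hp with 25, Fga with 9 and Apoh with 7. In the 785 Aire-expressing cells, all 4 cells with Fga and 6 of the 7 with Fgb also held Fgg, which was found in 18.

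Other neighbours were found together less completely in Aire-expressing cells. F10 was held by 47 cells, F7 by 26 and both by 10. Itih1 was held by 39, Itih3 by 35 and both by 12, while Ahsg and Kng1, 158415 bases apart, shared 4 cells. Hp and Tat shared 0 cells, with 21 and 14 cells each. Among 780 pairs with each gene in at least 10 of these cells, F7 with F10 had the largest share of the rarer gene's cells in common, 38.5%, followed by Itih1 with Itih3. The median over the 774 pairs that were not neighbours was 6.25%. Their highest was 33.3%, in Itih1 with Hao1, against 34.3% in Itih1 with Itih3. Ambp with Gnmt, not neighbours, stood at 30.3%, above the neighbours Itih3 and Itih4 at 25%. Cells of higher depth hold more genes of any kind. The median was 18154 UMIs over all these cells, 19065 in cells with F7 and 18710 in cells with Itih1.

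The inter-alpha-trypsin inhibitor heavy chains, which bind hyaluronan in plasma, had most of their UMIs in Aire-expressing cells when all samples were pooled. The shares there were 52.8% for Itih1, 64.3% for Itih2, 79.6% for Itih3 and 58.7% for Itih4. In controls alone they were 54.8, 59.3, 71.7 and 27.8%, and Ciliated cells held more of the 36 control UMIs of Itih4 (30.6%). Their sum was 3.35 ± 1.31 CPM (SD, n = 3) in controls and 3.83 ± 2.04 (n = 4) in mutants, overlapping. Mbl2, the mannose-binding lectin that starts complement activation, had 56.6% of its UMIs in Aire-expressing cells. It stood there at 14.1, 49.2 and 28.0 CPM in controls and 1.67, 3.04, 12.8 and 34.3 CPM in mutants, overlapping (log2 change -1.16, SE 0.83, edgeR adjusted p = 0.995). A further 145 Mbl2 UMIs lay in Entero-hepato cells of control 3 alone.

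Enzymes of amino acid, urea and methyl group metabolism summed to 28.2 ± 8.74 CPM (SD, n = 3) in controls and 29.3 ± 4.92 (n = 4) in mutants. Tdo2 (chr3:81957090-81976202), which opens the tryptophan ring, led the group with 1192 UMIs, 74.4% in Aire-expressing cells. Within that class it stood at 64.6, 52.7 and 60.7 CPM in controls and 43.3, 66.2, 48.8 and 78.5 CPM in mutants, and the ranges overlapped. Its log2 change was 0.05 (SE 0.22, edgeR adjusted p = 1.000).

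Arg1 (chr10:24915221-24927484), the last enzyme of the urea cycle, had 41.6% of its 838 UMIs in Secretory cells when all samples were pooled. In controls alone Arg1 had its largest share in Neuroendocrine cells, 42.7% of 307 UMIs. In Neuroendocrine cells it stood at 38.3, 38.8 and 39.2 CPM in controls and 29.5, 21.3, 30.6 and 28.2 CPM in mutants, with no overlap and little spread. The log2 change there was -0.48 (SE 0.17, edgeR adjusted p = 0.421). The share of these cells with Arg1 at 5000 UMIs overlapped, at 10.6 to 14.9% in controls and 6.52 to 11.4% in mutants (unthinned, 19.3 to 20.5% and 8.51 to 17.1%). In Secretory cells Arg1 stood at 103, 22.9 and 48.0 CPM in controls and 84.0, 40.2, 44.4 and 82.3 CPM in mutants, which overlapped. Mat1a, which makes S-adenosylmethionine in liver, had 716 UMIs in 421 cells and 5.11 ± 1.33 CPM (n = 3) in controls against 5.40 ± 0.523 (n = 4) in mutants.

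Aire-expressing cells also held 81.7% of UMIs of Cps1, the entry enzyme of the urea cycle, and between 50% and 60% of those of Gnmt, Bhmt and Tat. Cps1 varied from sample to sample within a genotype, at 0, 38.7 and 7.20 CPM in controls and 26.7, 9.71, 9.68 and 10.2 CPM in mutants of that class. Hpd, an enzyme of tyrosine breakdown, had 54.5% of its 211 UMIs in Neuroendocrine cells.

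Gluconeogenesis genes summed to 7.74 ± 2.99 CPM (SD, n = 3) in controls and 3.84 ± 0.754 (n = 4) in mutants, with no overlap and most of it from Pck1, the enzyme that makes phosphoenolpyruvate. Pck1 stood at 1.78, 5.70 and 8.21 CPM in controls and 1.06, 3.57, 1.79 and 1.85 CPM in mutants. Control 1 lay among the mutants. The log2 change was -1.36 (SE 0.53, edgeR adjusted p = 0.696), and -0.75 without Entero-hepato cells, which held 117 control UMIs of Pck1. Fbp1 stood at 2.17 ± 0.519 CPM (n = 3) in controls and 1.47 ± 0.613 (n = 4) in mutants, and G6pc, the glucose-releasing phosphatase, had 47 UMIs in 12 cells.

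Bile acid genes summed to 4.70 ± 3.75 CPM (SD, n = 3) in controls and 3.54 ± 0.995 (n = 4) in mutants. Abcc2, the canalicular exporter of conjugates, had 54.2% of its UMIs in Aire-expressing cells, as did Baat, which conjugates bile acids, with 79.5%, and Abcb11, the bile salt export pump, with 65.5%. Abcb4, the phospholipid flippase of the bile canaliculus, had 160 UMIs in 137 cells of many classes. Of the oxidases, Uox (urate oxidase) had 36.9% of its 379 UMIs in Ciliated cells. In Neuroendocrine cells Uox stood at 16.6, 16.5 and 17.9 CPM in controls and 10.0, 6.84, 14.9 and 7.36 CPM in mutants, all mutants below all controls (log2 change -0.80, SE 0.30, edgeR adjusted p = 0.493). Without the highest cell, of 5 UMIs, the lowest control was at 15.1 and the highest mutant at 14.9 CPM. The share of these cells with Uox at 5000 UMIs overlapped, at 2.13 to 8.94% in controls and 3.13 to 5.21% in mutants (unthinned, 14.5 to 17.3% and 7.45 to 12.2%). Hao1, which oxidises glycolate, had 63.5% of 52 UMIs in Aire-expressing cells, and Cyp2e1 had 28 UMIs in all.

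Many of these levels rested on single cells. Of the 46 genes with at least 20 UMIs, 9 had over 20% of their UMIs in 1 cell and 17 had 50% of them in 10 cells or fewer. Others were spread thinly, with Ahsg in 618 cells, Mat1a in 421, F12 in 351 and Azgp1 in 231.

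**Figure D4:**
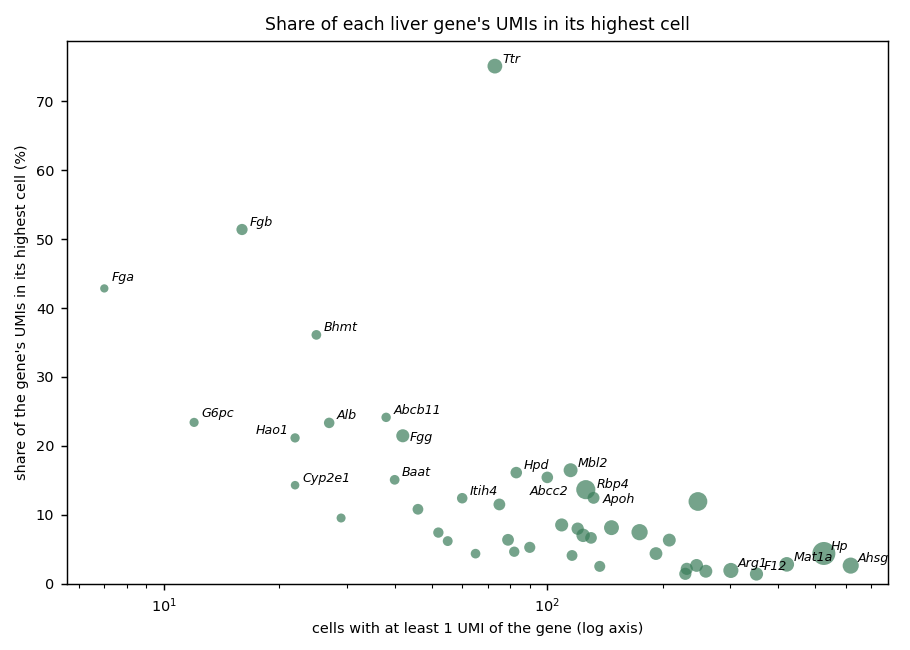
Share of a gene's UMIs that lay in its highest cell (vertical axis, percent) against the number of cells with at least 1 UMI of it (horizontal axis, log scale) for the 46 genes with at least 20 UMIs, with point size growing with UMIs. Ttr stands at the top with 75.1% in 1 cell, and Ahsg at the lower right with 618 cells.

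The share of cells with any of the 50 genes differed in some classes and not in others, at 5000 UMIs per cell. Neuroendocrine cells with at least 1 of the genes made up 54.3 to 59.6% in control and 38.0 to 41.7% in mutant samples, with no overlap (unthinned over all cells of the class, 72.6 and 63.2%). Microfold cells stood at 35.0 to 48.5% in 3 control samples and 10.0 to 21.1% in the 3 mutant samples with at least 10 cells (unthinned, 65.8 and 36.8%, median 13939.5 and 11415.5 UMIs). At 3000 UMIs per cell the Microfold samples overlapped, at 12.5 to 27.3% and 18.2 to 24.0%, so no difference is read from this class. The Neuroendocrine samples did not overlap at 3000 UMIs either, at 41.0 to 46.9% and 29.8 to 35.4%. Keratinocyte samples overlapped, at 38.2 to 45.0% and 24.1 to 40.7%. Aire-expressing cells stood at 149 of 300 in controls (49.7%) and 229 of 475 in mutants (48.2%), and Tuft cells at 16.8% and 16.6%. Immature cells, as background, stood at 4.59% in controls and 8.16% in mutants, with 40 of the 50 genes at 0. The number of cells that fell below 5000 UMIs and were left out was 8 control and 9 mutant in Neuroendocrine, 6 and 9 in Microfold, and 3 and 7 in Aire-expressing cells.

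Over all cells 37 of the 50 genes had enough UMIs to be tested, and edgeR's quasi-likelihood test called 0 of them at an adjusted p under 0.05, against 0.184% of all 21187 genes tested (39 genes). With 1 sample left out that number of genes ran from 2, without control 2 or without mutant 1, to 31, without control 1. At an unadjusted p under 0.05 there were 8 of the 37 (21.6%), against 6.65% of all genes, with 6 lower in mutants, against 4.31% of all genes, and 2 higher. The median log2 change of the 37 was -0.48, against 0.00 over all genes. Negative changes were found for 25 of the 37, against 49.1% of all genes. Samples of the genotypes did not overlap for 6 of the 37, against 7.85% of all genes, with 5 lower in mutants, against 4.77%, and 1 higher. DESeq2 called 3 of the genes, Gc, Ambp and Ttr, among 224 genes in all.

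Without Entero-hepato cells edgeR again called 0 of 37 (0.0426% of all genes, 9 genes, and 0 to 11 with 1 sample left out), with 5 at an unadjusted p under 0.05 (5.68% of all genes) and a median of -0.43. DESeq2 then called 2, Gc and Ambp. The log2 changes were -1.86 for Gc (edgeR adjusted p = 0.373), -2.70 for Ambp (0.391), -0.92 for F10 and -0.56 for F2. Ttr lay nearer 0 without that class, at -1.41 against -3.99 with it.

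**Figure D5:**
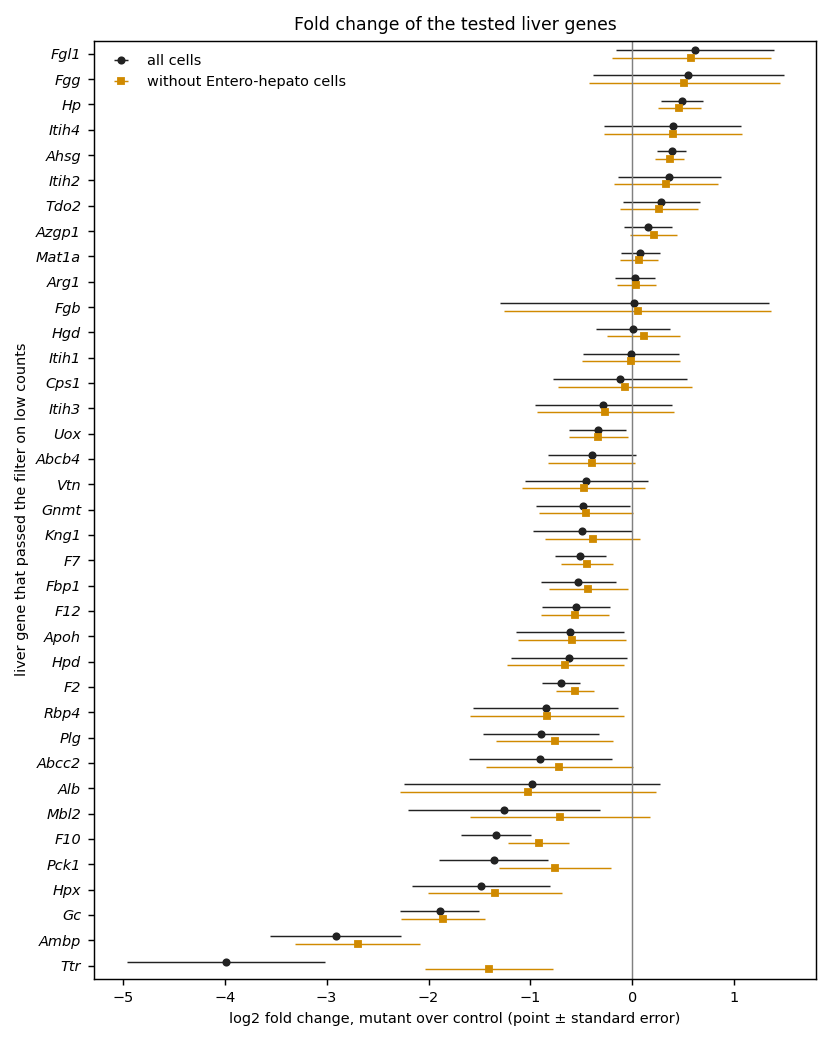
Log2 change (mutant over control, horizontal axis) of the 37 genes tested over all cells and again without Entero-hepato cells, with bars of 1 SE. Gc and Ambp stay at nearly the same place in both fits, while Ttr and F10 lie nearer 0 without Entero-hepato cells.

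Within single classes edgeR called 0 of the genes in any of the 11 classes with enough cells, and DESeq2 called 0 too. In Neuroendocrine cells, where 0.389% of all genes were called, all 7 genes tested were negative, against 49.9% of all genes. Of these 7, 3 (Ambp, Arg1 and Uox) had an unadjusted p under 0.05 (8.32% of all genes). In Keratinocyte cells, where 0.0799% were called, 1 of 3 genes tested, Gc, had an unadjusted p under 0.05 (7.3% of all genes). In Tuft cells (0.0881% called) it was 1 of 5, F12 (8.74% of all genes). In Aire-expressing cells (0.0% called) it was 1 of 21, Hpx, against 5.15% of all genes. Ciliated cells (0.0% called) had 0 of 4 against 2.65% of all genes, and Secretory cells (0.0314% called) 0 of 4 against 6.67%. No gene of the 50 had enough UMIs to be tested in the other 5 classes. With 1 sample left out the number of all genes called ran from 10 to 42 in Neuroendocrine (44 with all samples), 2 to 18 in Keratinocyte (9), 5 to 52 in Tuft (13) and 0 to 6 in Secretory cells (3). The low ends were without mutant 1, mutant 2, control 2 or mutant 2, and mutant 3, and the high ends without mutant 4, mutant 4, control 3 and control 1.

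Other liver genes, from 3 lists, were set beside these. Of 42 other plasma proteins 30 were tested over all cells and edgeR called 1, Trf (transferrin, the iron carrier), which was lower in mutants at 9.87 ± 2.17 against 26.5 ± 4.80 TMM-scaled CPM (log2 change -1.42, SE 0.19, adjusted p = 0.0459). Of 45 other metabolic enzymes and transporters 36 were tested and 1 was called, Pklr (liver pyruvate kinase), at 0.514 ± 0.145 against 3.16 ± 0.891 TMM-scaled CPM (log2 change -2.62, SE 0.31, adjusted p = 0.0384). Of 26 liver and gut transcription factors 24 were tested and 1 was called, the deleted Hnf4g itself. List medians were -0.21, -0.06 and -0.13. Without Entero-hepato cells edgeR called 0 in each list, with 8, 3 and 4 genes at an unadjusted p under 0.05. Trf then had a log2 change of -1.04 (adjusted p = 0.406) and Pklr -2.35 (adjusted p = 0.0542). Leaving out any 1 sample ended the edgeR calls of Trf (adjusted p 0.0950 to 0.198) and Hnf4g (0.0720 to 0.184) over all cells, and the adjusted p of Pklr ran from 0.0462 to 0.184.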

How the data were processed

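One droplet library of 7 hash-tagged samples (3 Hnf4ctrl, 4 Hnf4dTEC) was analysed, and the library of hash tags itself was not used. The authors deposited raw UMI counts per gene and cell (10x 3′ v3.1 chemistry, per the labels) and a table giving each cell's sample and class. Build mm10, Seurat 4.0.2 and Cell Ranger 6.1.0 are given by the submitters' processing notes, whereas the header of the matrix gives version 7.0.0. Which cells the authors removed, and whether as doublets, is not given in the sources used here. No doublet caller was run, 8904 barcodes without a class were left out, and 45 cells whose top hash tag differed from the table were kept.

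Counts were summed by sample and by class and sample. They were fitted with edgeR 4.0.16 (quasi-likelihood test, filterByExpr, TMM, Benjamini-Hochberg adjustment over all genes, threshold 0.05), which was tested on simulated data. A class was fitted where at least 3 samples of each genotype had 10 cells. Entero-hepato, Ionocyte, Klk-rich and Muscle cells had too few, and Microfold cells used 3 mutant samples. Alternatives used DESeq2 1.42.0 and limma 3.58.1. CPM outside fits are not TMM-scaled, and floors use 3 counts. Intervals and limits cover counting error only. Cells were thinned to 5000 UMIs for shares.

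The genes, lists and tests were chosen with earlier results of these data known. Named were genes past the threshold, the 3 with most UMIs in each role and those with over 50% of UMIs in 1 class. Of the other liver lists only genes past the threshold are given. Promoters came from RefSeq (GRCm38.p6, 40 of 50 genes) and gene positions from GENCODE M21.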

Additional observations from a re-analysis of the deposited data

Results flagged for a closer look

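Of 37 mutant groups of 4 samples examined for 1 sample far from the rest, 2 stood out, where chance alone gives about 1 in 20. Fgb was at 4.46 CPM in mutant 3 and at most 0.416 CPM in the other mutants, a gap of 0.928 of the whole range, and 91 of its UMIs in mutant 3 lay in 1 Aire-expressing cell. Itih2 was at 1.80 CPM in mutant 4 and at most 1.19 CPM in the other mutants, a gap of 0.830 of the range, just past the limit of the test (Dixon, 95%).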

How the results depend on the processing

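Counts of the 50 genes called depended on the tool and the filter. Over all cells edgeR called 0, DESeq2 3 and limma at one class mix 1 (Ambp, adjusted p = 0.0332), and leaving out 1 sample gave 0 to 1. Without Entero-hepato cells DESeq2 called 2. Within classes the test with no filter on low counts called 13 pairs of gene and class, the replicate block 1 and the same samples without the block 1 (Ambp in Neuroendocrine cells each time), and leaving out 1 sample gave 0 to 1. The 3 calls of the other liver lists became 5 with DESeq2, 1 with limma, 0 with the replicate block, 0 in the same samples without it, and 0 to 1 with 1 sample left out. The highest class was the same by UMIs for 22 of 42 genes and for 28 to 36 with 1 control left out. Aire-expressing control cells with a gene were 49.7% at 5000 UMIs and 72.3% at all UMIs.

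Near 0, signs turned: Tdo2 in Aire-expressing cells (0.05) ran from -0.12 to 0.17 with 1 sample left out, -0.13 with the block and -0.12 without it. Hp in Secretory cells (0.01) ran from -0.45 to 0.53, -0.21 with the block and -0.45 without it. Arg1 there ran from -0.12 to 0.76, and Ahsg over all cells was -0.92 without Tuft cells; the cause was not tested. Of 391 other values of 28 single-gene differences, 343 kept direction and side of the threshold, and 21, all of Trf and Pklr, lost their call.

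Same-numbered samples correlated at 0.44, 0.17 and -0.05 over 11626 genes, not every sample did so best with its own number, and they share only a number. The block called 7 genes over all cells, as did the same samples without it. Alternatives without Aire-expressing cells, without the highest Ttr cell and without the block were chosen after seeing the data. Depth limits genes under 20 UMIs.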

Other observations

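Microfold cells, which resemble the antigen-sampling cells of gut epithelium, had none of the 50 genes tested, but 2 genes of the other liver lists were called there, both lower in mutants. Fabp1, a fatty acid-binding protein of liver and gut, stood at 1325, 1553 and 972 CPM in controls and 43.1, 290.2, 67.1 and 326 CPM in mutants, and the genotypes did not overlap. Its log2 change was -3.29 (SE 0.55, edgeR adjusted p = 0.0163), in a fit that left out mutant 4 for its few cells, and without mutant 1 it was -2.86 (adjusted p = 0.0654). Trf had 49, 50 and 63 UMIs in control Microfold cells and 1, 0, 0 and 0 in mutants, and edgeR's adjusted p was 0.000499, and at most 0.00559 with any 1 sample left out. Of all 4656 genes tested in Microfold cells, 141 were called, and 28, without mutant 1, to 95 with 1 sample left out (73 with the replicate block).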
